A study of Mus musculus with 4 samples.

Results

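Eph receptors are receptor tyrosine kinases whose ligands, the ephrins, are themselves held on the surface of neighbouring cells. The members of this family followed here, 10 in all and known from limb development, were the EphA receptors Epha3, Epha4 and Epha7, the EphB receptors Ephb2, Ephb3 and Ephb4, the ephrin-A ligands Efna1 and Efna5, and the ephrin-B ligands Efnb1 and Efnb2. The genes were chosen by name, and a tag of the deposited table was counted for a gene where the table gives it that gene's Ensembl identifier. They make up 10 of the 26252 genes and UniGene clusters that the table lists, and all 10 passed the filter on low counts.

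Hindlimbs and forelimbs of CD1 mouse embryos at E14.5 were compared, with 2 biological replicates of each limb type per the labels and no treatment or transgene. RNA was taken from the whole dissected limb. Embryo sex, the number of embryos in a sample and any pairing of limbs from the same animals are not stated, so p-values measure the spread between these samples. Messenger RNA was counted by DGE-SAGE, in which cDNA is cut by NlaIII at CATG and the 17 bases beside the cut nearest the poly(A) tail are read as the tag of the transcript. In bulk limbs, fewer cells of a type and less RNA per cell cannot be told apart.

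Binding of an ephrin starts forward signalling in the cell with the Eph receptor and reverse signalling in the cell with the ephrin, and contact often ends in repulsion. EphA receptors mainly bind ephrin-A ligands, which sit on a lipid anchor, and EphB receptors mainly bind ephrin-B ligands, which span the membrane; Epha4 also binds ephrin-B ligands. In the limb the family is known for guiding motor axons to dorsal or ventral muscle, for keeping cartilage-forming cells together and apart from others, and for setting arteries apart from veins.

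The tags themselves are shown because each difference between the limb types was read from a few of them. The most abundant tag of each gene is given first, 5′ to 3′, with the NlaIII site in capitals where the tag was matched to an M21 transcript; tag numbers rank a gene's tags by their summed counts.
Epha3 tag 1: CATGaggacagcacactgtaa
Epha4 tag 1: CATGaactttaggtacacata
Epha7 tag 1: CATGgggaacttggggcgaaa
Ephb2 tag 1: CATGaagggaagaggtgagcc
Ephb3 tag 1: CATGagtgtgtacaagcttgg
Ephb4 tag 1: CATGtccctgcagaccaaaga
Efna1 tag 1: CATGtacagtgtctgtatata
Efna5 tag 1: cttcttcttgacaccgc
Efnb1 tag 1: CATGgaaggagctgggcctta
Efnb2 tag 1: CATGacagttaagccccagaa
The other tags of Efnb1 that were tested are given because their ratio differed between the limb types.
Efnb1 tag 2: CATGgggggtggagggaggtg
Efnb1 tag 3: CATGagacaatgctgttccta
Efnb1 tag 4: CATGagactgtgaaccaggaa
Efnb1 tag 5: CATGctcttgtgccttccccc

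All 10 genes are protein coding, and their positions are given on GRCm38. Epha3 (ENSMUSG00000052504) lies at chr16:63543534-63864175 on the minus strand. Epha4 (ENSMUSG00000026235) lies at chr1:77367185-77515088 on the minus strand, and Epha7 (ENSMUSG00000028289) at chr4:28813131-28967499 on the plus strand. Ephb2 (ENSMUSG00000028664) lies at chr4:136647539-136835988 on the minus strand, and Ephb3 (ENSMUSG00000005958) at chr16:21204755-21223305 on the plus strand. Ephb4 (ENSMUSG00000029710) lies at chr5:137350109-137378669 on the plus strand. Efna1 (ENSMUSG00000027954) lies at chr3:89271733-89281142 and Efna5 (ENSMUSG00000048915) at chr17:62604184-62881317, both on the minus strand. Efnb1 (ENSMUSG00000031217) lies at chrX:99136130-99148991 on the plus strand, and Efnb2 (ENSMUSG00000001300) at chr8:8617434-8661242 on the minus strand. Of the most abundant tags, those of Epha4, Epha7, Ephb3, Ephb4, Efna1, Efnb1 and Efnb2 lie in the 3′ UTR beside the last NlaIII site of the transcript. That of Ephb2 lies in the 3′ UTR, farther upstream in the longest transcript it matched but beside the last site of another annotated transcript. That of Epha3 lies in the coding sequence, and that of Efna5 matched no M21 transcript.

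The 4 libraries held 5325279 and 5015295 tag counts for hindlimb replicates 1 and 2, and 4695786 and 1829647 for forelimb replicates 1 and 2. The 10 genes had 3135 and 3138 counts in the hindlimb libraries, against 2564 and 1122 in the forelimb libraries. The limb labels matched their defining genes: Pitx1, a homeobox gene of hindlimb identity, was at 253 and 303 CPM in hindlimb against 3.31 and 1.24 CPM in forelimb, and Tbx5, a T-box gene of the forelimb, was at 0.889 and 1.51 CPM in hindlimb against 18.3 and 14.8 CPM in forelimb. CPM are counts relative to library size as edgeR gives them, scaled by its TMM factors. The libraries differed in the bases of their tags: G and C made up 46.3% and 50.4% of the bases of annotated counts in hindlimb, against 40.6% and 40.2% in forelimb. Differences are therefore given on the raw counts and again with a tag-sequence offset, a correction fitted in each library on the base composition of tags of the same gene. With this offset the log2 fold change of Pitx1, hindlimb over forelimb, went from 6.72 to 3.465, and that of Tbx5 from −3.77 to −3.90. Base composition differed along with limb type, and whether the offset also takes out true differences between the limb types was not tested.

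Of the 10 genes, Ephb4 was higher in hindlimb and Efnb2 was lower in hindlimb by edgeR's quasi-likelihood test at an adjusted p below 0.05, and 8 did not pass. Of all 13718 genes tested, 16.7% were called, 9.58% higher and 7.08% lower in hindlimb, so 2 of 10 is close to the background. The median log2 fold change, hindlimb over forelimb, was −0.0071 over the 10 genes and −0.029 over all genes. With the tag-sequence offset none of the 10 was called by edgeR, 2 had an unadjusted p under 0.05, and 0.146% of all genes were called. DESeq2, run without the offset, called Ephb4 and Efnb1 higher and Efnb2 lower in hindlimb. The CPM of the limb types did not overlap for 6 of the 10 genes, 3 in each direction, against 62.8% of all genes tested and 31.4% in each direction.

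**Figure D1:**
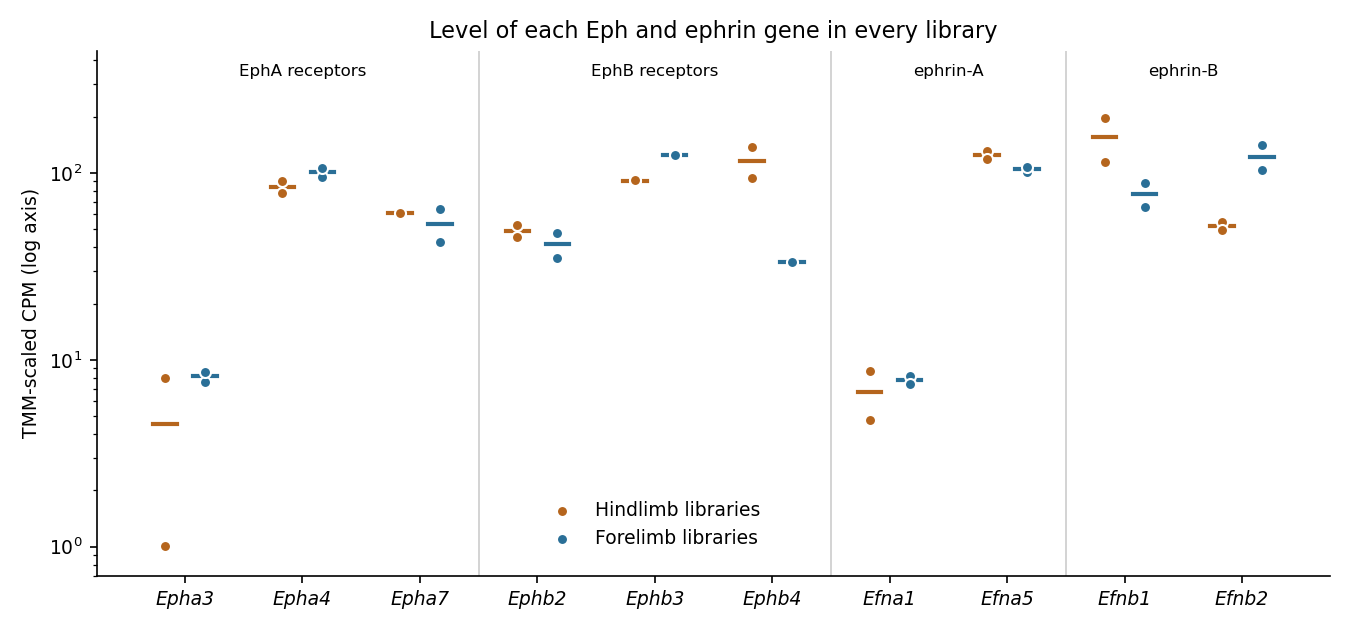
TMM-scaled CPM (log axis) of each gene in the 4 libraries, with hindlimb libraries left of forelimb libraries and a bar at the mean of each limb type (n = 2). Ephb4 and Efnb1 lie higher in hindlimb and Efnb2 lies lower in hindlimb, each without overlap.

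Among the EphA receptors, none of 3 was called on raw counts by edgeR or DESeq2, and none had an unadjusted edgeR p under 0.05. With the tag-sequence offset 1 of these receptors had an unadjusted edgeR p under 0.05, and none was called. Epha4, the receptor through which motor axons are kept out of the wrong side of the limb, was the most abundant of them, with 407 and 308 counts in hindlimb against 372 and 172 in forelimb. That made 90.5 and 77.7 CPM in hindlimb and 94.7 and 106 CPM in forelimb. The limb types lay next to each other without overlap, with hindlimb the lower, at a log2 fold change of −0.25 ± 0.32 by edgeR (SE; adjusted p = 0.624). With the tag-sequence offset its sign turned, to 0.89 (adjusted p = 0.211), the largest corrected change among the 10 genes. Its tags were poor in G and C, at 31.0% over its counts, and the offset fitted from tag bases was −1.27 for hindlimb minus forelimb. Over the alternatives tried its log2 fold change ran from −0.38 to 0.89 and its adjusted p from 0.211 to 0.889.

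Epha7, a receptor known for boundaries and axon guidance in the embryo, had 60.5 and 61.0 CPM in hindlimb, inside the 42.8 and 64.3 CPM of the forelimb libraries. By edgeR the log2 fold change came to 0.20 ± 0.35 (SE; adjusted p = 0.738), or 0.46 once the offset was applied. On its tags at the last NlaIII site alone it was 1.41 ± 0.54 (SE; edgeR adjusted p = 0.0663) and did not pass. These tags were at 18.2 and 25.3 CPM in hindlimb against 7.08 and 9.56 CPM in forelimb. Epha3, a receptor with a role in motor axon guidance, had few assigned counts, 36 and 4 in hindlimb against 30 and 14 in forelimb. Tags that match Epha3 alone, and to which the table gives no gene, held a further 225 and 94 counts in hindlimb and 228 and 136 in forelimb. Hindlimb replicate 2 stood alone at 1.01 CPM, and the other libraries lay close together, at 8.004 CPM in hindlimb replicate 1 and 7.64 and 8.65 CPM in forelimb. The log2 fold change of −0.83 ± 0.82 (SE, adjusted p = 0.523) was −0.0013 without hindlimb replicate 2.

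Of the EphB receptors, Ephb4 was called and Ephb2 and Ephb3 were not. Ephb4, the receptor of venous endothelium that binds Efnb2, had 424 and 545 counts in hindlimb against 130 and 54 in forelimb. Its levels were 94.3 and 137 CPM in hindlimb and 33.1 and 33.4 CPM in forelimb, or 116 ± 30.5 against 33.2 ± 0.184 CPM (mean ± SD, n = 2 each). Both hindlimb libraries were well above both forelimb libraries, with a log2 fold change of 1.80 ± 0.35 by edgeR (SE; adjusted p = 0.00316). The call held without each library in turn, at 1.52 to 2.04, and with an offset on G and C content alone, at 1.05 (adjusted p = 0.0307), under which 6.22% of all genes were called. It was lost with the tag-sequence offset, at 0.15 (adjusted p = 0.901), where the offset fitted from tag bases was 1.51. Over all alternatives tried the log2 fold change stayed above 0, from 0.15 to 3.36, and the adjusted p ran from 2.54e-06 to 0.901.

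Ephb3, a receptor that shares ligands with Ephb2, was even between replicates of both limb types, at 90.0 and 91.8 CPM in hindlimb against 126 and 124 CPM in forelimb. Both hindlimb libraries were lower, yet the log2 fold change of −0.46 ± 0.31 (SE, edgeR adjusted p = 0.323) did not pass, and it was 0.11 with the offset. Ephb2, a receptor in motor axon guidance and tissue boundaries, had 45.4 and 52.7 CPM in hindlimb against 47.9 and 35.2 CPM in forelimb, and its limb types overlapped. It changed by 0.23 ± 0.36 on the log2 scale (SE; adjusted p = 0.706) on raw counts, −0.70 with the tag-sequence offset and −0.78 with the offset on G and C content alone. Summed over the 3 EphB receptors, levels were 229.7 and 282 CPM in hindlimb and 207 and 193 CPM in forelimb.

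Of the ephrin-B ligands, Efnb2 was lower in hindlimb and Efnb1 just missed the threshold in the other direction. Efnb2, the ligand that marks arterial endothelium, had 245 and 197 counts in hindlimb against 407 and 227 in forelimb, although forelimb replicate 2 was the shallowest library. In CPM these were 54.5 and 49.7 in hindlimb and 104 and 140.3 in forelimb, or 52.1 ± 3.40 against 122 ± 25.9 CPM (mean ± SD, n = 2 each). By edgeR the log2 fold change came to −1.22 ± 0.33 (SE; adjusted p = 0.0180). Leaving out forelimb replicate 1 ended the call (−1.43, adjusted p = 0.0565), as did leaving out forelimb replicate 2 (−1.0, adjusted p = 0.200) or applying the tag-sequence offset (−0.31, adjusted p = 0.759) or the offset on G and C content alone (−0.74, adjusted p = 0.0985). It was also lost on the most abundant tag (adjusted p = 0.133) and on tags at the last NlaIII site (adjusted p = 0.0766). The direction held under every alternative tried, from −1.43 to −0.31, with adjusted p from 0.00459 to 0.759.

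Efnb1, an X-linked ligand that sorts cells into compartments in the limb and skull, had the highest mean of the 10 genes in hindlimb. It had 517 and 781 counts in hindlimb against 347 and 106 in forelimb, which made 115 and 197 CPM in hindlimb and 88.4 and 65.5 CPM in forelimb. Both hindlimb libraries were higher, but hindlimb replicate 1 lay closer to forelimb replicate 1 than to hindlimb replicate 2. By edgeR the log2 fold change came to 1.01 ± 0.35 (SE; adjusted p = 0.0532). It passed under 7 of the 16 alternatives tried, among them without hindlimb replicate 1, at 1.33, and in DESeq2, at 0.99 (adjusted p = 0.0424). By edgeR it also passed on tags at the last NlaIII site (1.73, adjusted p = 0.0156) and on the most abundant tag (2.43, adjusted p = 0.00613). It was 0.22 with the tag-sequence offset and −0.06 with the offset on G and C content alone, and over all alternatives its adjusted p ran from 0.00149 to 0.917.

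The ephrin-A ligands did not pass. Efna5, a ligand that repels axons with EphA receptors, was abundant in both limb types, at 130.3 and 118 CPM in hindlimb against 101 and 108 CPM in forelimb. Hindlimb was higher without overlap, but by little, with a log2 fold change of 0.25 ± 0.31 by edgeR (SE; adjusted p = 0.618) and 0.13 with the offset. On its tags that matched Efna5 alone in M21 the limb types overlapped. These were at 70.5 and 56.5 CPM in hindlimb against 56.5 and 70.2 CPM in forelimb, a log2 fold change of 0.011. Efna1, a ligand found in blood vessels and epithelia, had 39 and 19 counts in hindlimb against 32 and 12 in forelimb. Its levels of 8.67 and 4.79 CPM in hindlimb enclosed the 8.15 and 7.42 CPM of forelimb, a change of −0.21 ± 0.65 on the log2 scale (SE; adjusted p = 0.854).

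**Figure D2:**
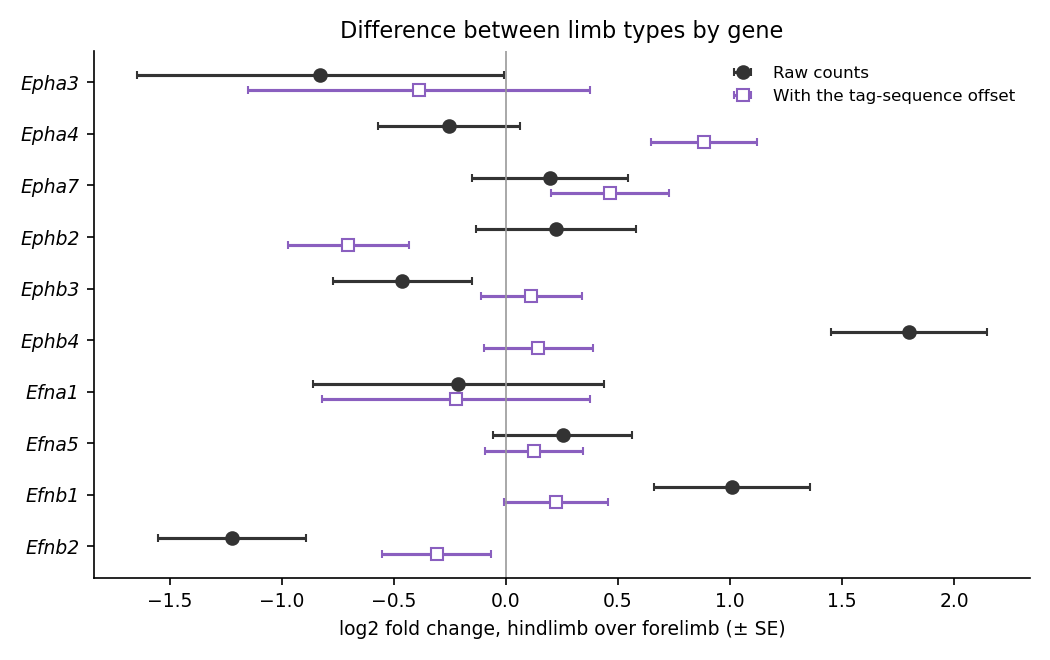
Log2 fold change of each gene, hindlimb over forelimb, with SE bars from edgeR, on raw counts (filled) and with the tag-sequence offset (open). The 3 largest changes on raw counts, of Ephb4, Efnb2 and Efnb1, fall to 0.15, −0.31 and 0.22 with the offset, and Epha4, Ephb2 and Ephb3 change sign.

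In this assay a transcript gives a tag at a site rather than fragments along its length, so levels of different genes were set in order without dividing by length. In hindlimb the order by mean CPM was Efnb1, Efna5, Ephb4, Ephb3, Epha4, Epha7, Efnb2, Ephb2, Efna1 and Epha3. In forelimb it was Ephb3, Efnb2, Efna5, Epha4, Efnb1, Epha7, Ephb2, Ephb4, Epha3 and Efna1. These levels carry no tag-sequence offset. For hindlimb minus forelimb that offset was 1.51 for Ephb4, 0.61 for Efnb1 and −1.04 for Efnb2, and its part in their differing places was not tested. The ranges of hindlimb replicates overlapped between Efnb1, Efna5 and Ephb4 as neighbours, between Ephb3 and Epha4, between Efnb2 and Ephb2, and between Efna1 and Epha3. In forelimb the overlapping neighbours were Ephb3 and Efnb2, Efnb2 and Efna5, Efna5 and Epha4, Epha7 and Ephb2, and Epha3 and Efna1. Efna1 and Epha3 were the lowest in both limb types, with means below 9 CPM as the table assigns the tags. With every tag given to the single M21 gene it matched, Epha3 averaged 44.5 ± 20.1 CPM in hindlimb and 78.3 ± 18.5 CPM in forelimb (SD, n = 2 each). Efna5 then averaged 68.6 ± 13.9 CPM in hindlimb and 68.2 ± 6.04 CPM in forelimb, against 124 and 104 CPM as the table assigns the tags. Ephb2 averaged 75.3 ± 11.2 CPM in hindlimb, against 49.0 CPM. The places of Epha3 and Efna5, and that of Ephb2 in hindlimb, therefore rest on the assignment. Summed by class, ephrin-B ligands came to 169 and 247 CPM in hindlimb and 192 and 206 CPM in forelimb, ephrin-A ligands to 139 and 123 CPM in hindlimb and 109 and 116 CPM in forelimb, and EphA receptors to 159 and 139.7 CPM in hindlimb and 145 and 179 CPM in forelimb.

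Within a gene, tags did not move together between the limb types. The 10 genes had 166 tags with a count, and 43 of them passed the filter of the tag test, from 9 of the genes. By edgeR's test on tags, adjusted over 37805 tags, 3 were higher and 1 was lower in hindlimb, where 6.24% of all tags were called, 4.59% higher and 1.64% lower. These 4 were Ephb4 tag 1 and Efnb1 tags 1, 2 and 3, and with the tag-sequence offset none passed, though 5 member tags had an unadjusted p under 0.05, and 0.0317% of all tags were called. All 8 genes with 2 or more tested tags had tags on both sides of 0. The same share over all genes was not counted, so this is not shown to be particular to the members.

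Ephb4 tag 1 lies in the 3′ UTR in exon 17 of 17, at chr5:137373947-137373967, beside the last NlaIII site of the transcript. It had 271 and 455 counts in hindlimb against 43 and 8 in forelimb, which is 3.37 ± 0.57 on the log2 scale (SE; edgeR adjusted p = 0.0213). The next site upstream gave Ephb4 tag 2, with 64 and 17 counts in hindlimb against 40 and 22 in forelimb and a log2 fold change of −0.34. Thus Ephb4 tag 1 held 63.9% (95% Wilson interval 59.2 to 68.3) and 83.5% (80.1 to 86.4) of the gene's counts in the hindlimb libraries, against 33.1% (25.6 to 41.5) and 14.8% (7.70 to 26.6) in the forelimb libraries. Ephb4 tag 2 is richer in G and C, at 76.5%, than Ephb4 tag 1, at 52.9%, and of all tags tested those at 76.5% had a median log2 fold change of 2.82 and those at 52.9% one of 0.32. The tag-sequence offset, which also takes the position of bases, went the other way. For hindlimb minus forelimb it was 2.215 for Ephb4 tag 1 and 1.057 for Ephb4 tag 2. With it their log2 fold changes were 1.017 and −1.425, and neither was called. The test of a differing tag ratio gave an adjusted p of 0.0917 for Ephb4.

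Efnb1 was the only one of 8 genes tested whose tag ratio was called different between the limb types (edgeR diffSpliceDGE, Simes adjusted p = 0.00542, 5 tags), where 10.4% of 8694 genes were called. Its 3 main tags lie within one 3′ UTR in exon 5 of 5. Efnb1 tag 1, beside the last site at chrX:99148740-99148760, had 212 and 395 counts in hindlimb against 55 and 20 in forelimb, which is 2.45 ± 0.52 on the log2 scale (SE; adjusted p = 0.0332). Efnb1 tag 2, at chrX:99148357-99148377, had 191 and 298 counts in hindlimb against 27 and 10 in forelimb, or 3.14 ± 0.53 (SE, adjusted p = 0.0213). Both tags nearest the 3′ end were thus higher in hindlimb.

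Efnb1 tag 3, at chrX:99148177-99148197, went the other way, with 61 and 24 counts in hindlimb against 197 and 69 in forelimb and a log2 fold change of −2.24 ± 0.53 by edgeR (SE; adjusted p = 0.0420). It held 11.8% (95% Wilson interval 9.30 to 14.9) and 3.07% (2.07 to 4.53) of the gene's counts in the hindlimb libraries, against 56.8% (51.5 to 61.9) and 65.1% (55.6 to 73.5) in the forelimb libraries. Efnb1 tag 1 held 41.0% and 50.6% in hindlimb against 15.9% and 18.9% in forelimb, and Efnb1 tag 2 held 36.9% and 38.2% in hindlimb against 7.78% and 9.43% in forelimb. The most common Efnb1 tag was therefore tag 1 in both hindlimb libraries and tag 3 in both forelimb libraries. Efnb1 tag 5 had 13 and 19 counts in hindlimb against 2 and 0 in forelimb, and Efnb1 tag 4, across the junction into exon 5, had 19 and 16 in hindlimb against 54 and 3 in forelimb.

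The sign of the Efnb1 tags went with their bases: tags 1, 2 and 5, above 0, held 58.8%, 76.5% and 64.7% G and C, and tags 3 and 4, below 0, held 41.2% and 47.1%. With the tag-sequence offset tags 1, 2 and 3 were at 1.23, 0.68 and −0.67, and the call on the ratio was lost (adjusted p = 1), where 0.178% of genes were called. It was also lost without hindlimb replicate 2 (adjusted p = 0.186), forelimb replicate 1 (0.143) and forelimb replicate 2 (0.138). The call on Efnb1 tag 3 was lost without hindlimb replicate 2 (−1.68, adjusted p = 0.109) and without forelimb replicate 1 (−2.09, adjusted p = 0.0746). Without hindlimb replicate 1 the ratio was called for 3 genes, Efnb1, Efnb2 and Ephb4.

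**Figure D3:**
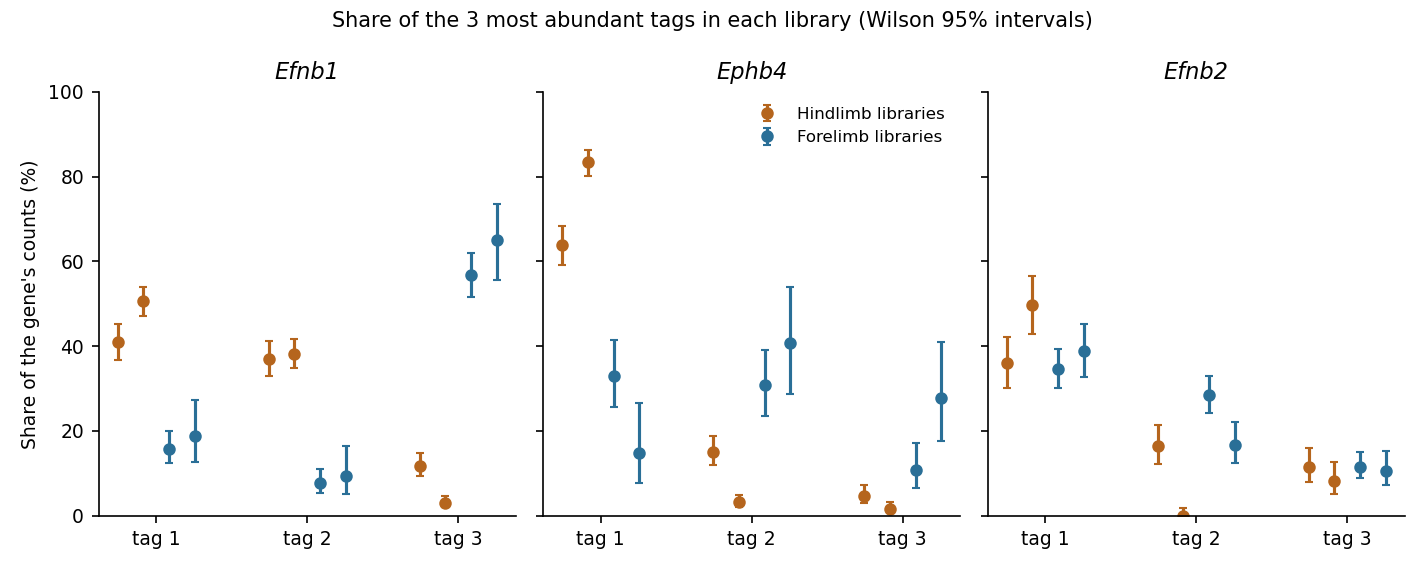
Share of the gene's counts (%) held by the 3 most abundant tags of Efnb1, Ephb4 and Efnb2, hindlimb libraries left of forelimb libraries, with 95% Wilson intervals for counting error only. For Efnb1 tag 3 the hindlimb libraries are at 11.8% and 3.07%, below the 56.8% and 65.1% of the forelimb libraries.

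Across the 43 tested tags, direction went with base composition. Of 17 tags with 9 or more G or C bases, 15 were above 0 and the median log2 fold change was 1.62. Of 26 tags with 8 or fewer, 21 were below 0 and the median was −0.94. Over all tags tested the median was also below 0 at each number up to 8, with −0.12 at 8. It was above 0 at each number from 9, with 0.32 at 9, so the pattern was not particular to these genes. Pearson's r between G and C percent and log2 fold change was 0.63 over the 43 tags, which share genes and libraries, and −0.08 with the offset, which was itself fitted on tag bases. The SD over these tags was 1.66 on raw counts and 0.86 with the offset. How much of each gene's difference this composition carries was not tested beyond the offsets.

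**Figure D4:**
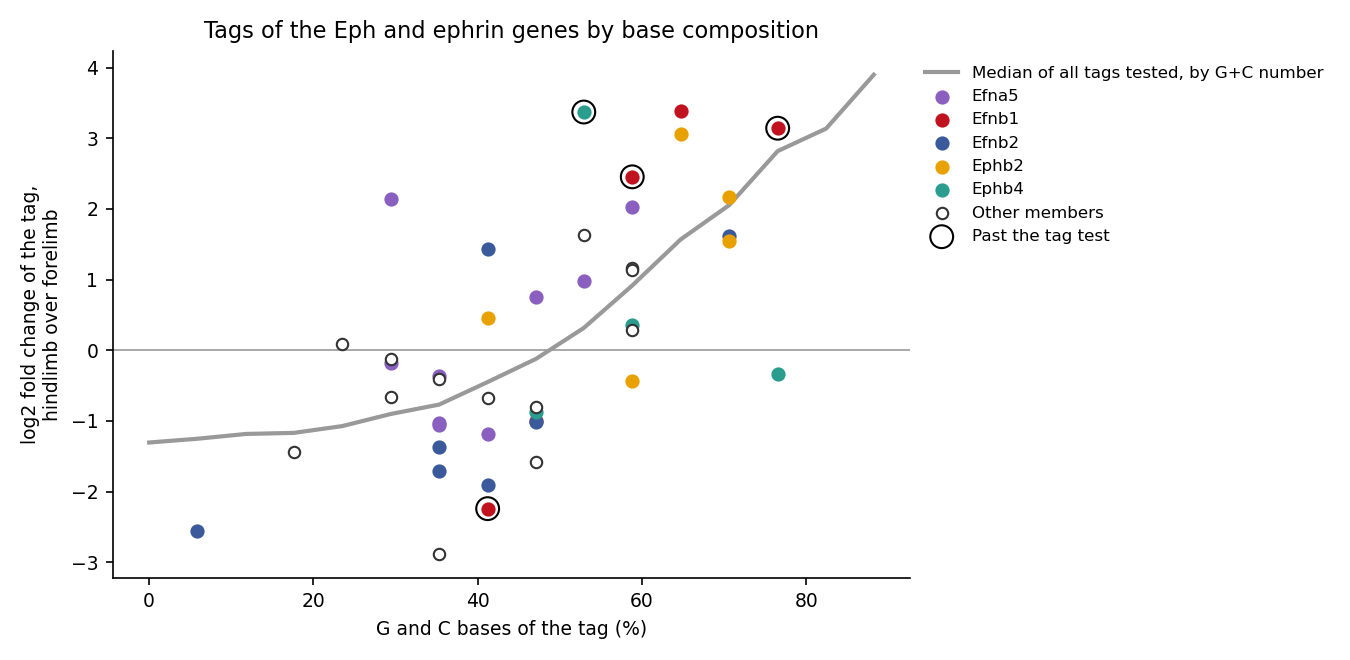
Log2 fold change of each tested tag, hindlimb over forelimb, against the percent of G and C among its 17 bases, with the median of all tags of the same number of G and C bases as a line and the 4 called tags ringed. Tags rich in G and C lie mostly above 0, and Ephb4 tag 2, at 76.5% G and C and −0.34, lies far below the line, which takes the number of G and C bases alone.

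Tags of the other genes also lay on both sides of 0 where 2 or more were tested. Ephb3 rested on tag 1 for 80.5% of its counts, which had 266 and 282 counts in hindlimb against 452 and 180 in forelimb and a log2 fold change of −0.80. Ephb3 tag 2 lies directly upstream of it, ending at the base before its NlaIII site, and had 90 and 55 counts in hindlimb against 27 and 14 in forelimb, a log2 fold change of 1.14. Neither passed, and both gave values within 0.29 of 0 with the offset. Efna5 tags 3 and 5 were at 2.02 and 2.14, while Efna5 tags 2 and 6 were at −1.06 and −1.18, so the small difference of the gene was a sum of opposite ones.

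Efnb2 had 5 of 7 tested tags below 0. Efnb2 tag 1, beside the last site, had 88 and 98 counts in hindlimb against 141 and 88 in forelimb, a log2 fold change of −1.02. Efnb2 tag 2, with G or C at 5.88% of its bases, had 40 and 0 counts in hindlimb against 116 and 38 in forelimb. Epha4 rested on tag 1 for 60.4% of its counts, with 203 and 228 counts in hindlimb against 254 and 75 in forelimb and a log2 fold change of −0.13. Of the tags of Epha7, tags 1 and 3 were at 1.16 and 1.63 and tags 2, 4 and 5 were at −1.45, −1.58 and −0.67.

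Ephb2 tag 1 had 102 and 76 counts in hindlimb against 150 and 28 in forelimb, while Ephb2 tags 2, 3 and 5, with 64.7% to 70.6% G and C, were at 2.17, 3.06 and 1.55. The assigned tags of Ephb2 lay far upstream: tag 1 was 7365 bases from the end of the longest annotated transcript it matched, and 65.5% of the gene's counts lay at the last site of some annotated transcript. That share was 82.6% for Ephb3, 79.8% for Ephb4, 65.7% for Efna1 and 60.7% for Epha4. It was 44.2% for Efnb1, 38.6% for Efnb2, 29.6% for Epha7, 20.4% for Efna5 and 5.95% for Epha3. For Efna5 only 54.0% of the counts matched the sense strand of an annotated transcript in M21. Tags 1 and 4, with 27.0% and 11.3% of the counts, matched none, and antisense tags held 7.32%.

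**Figure D5:**
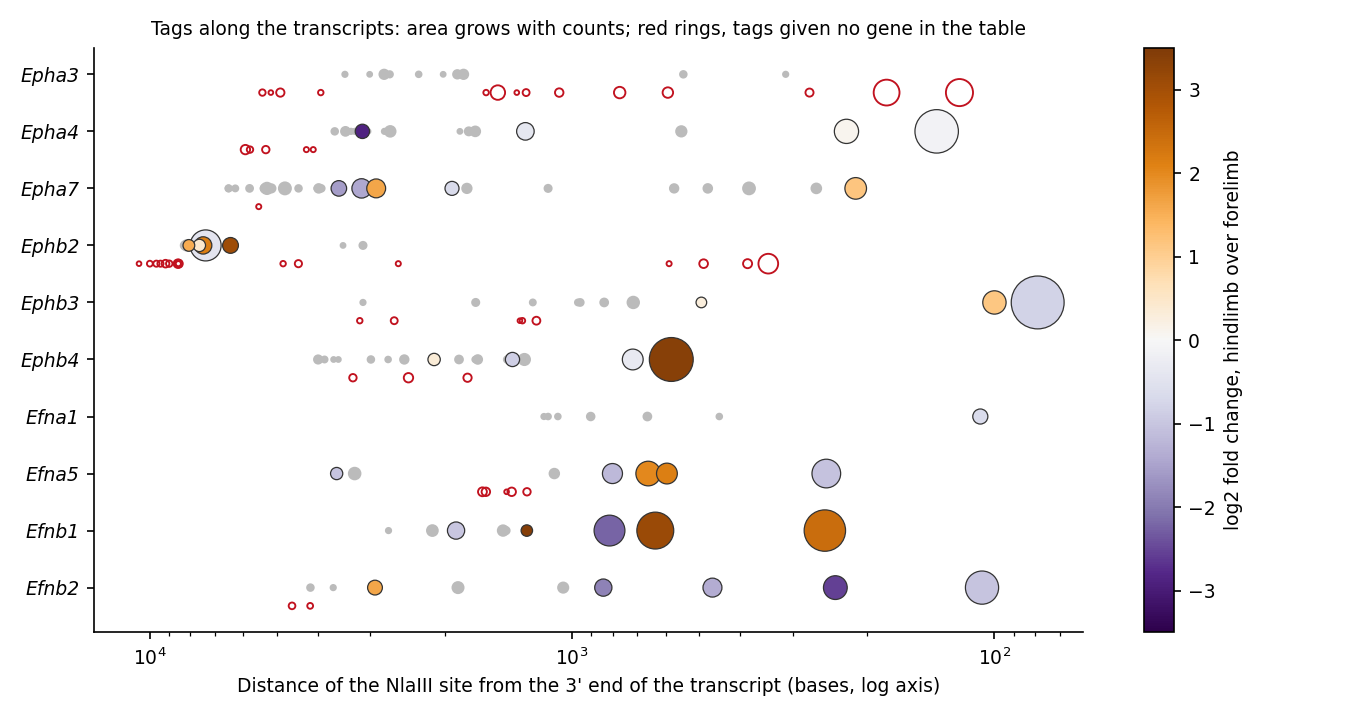
Tags of each gene by the distance of their NlaIII site from the 3′ end of the matched transcript (bases, log axis), with area growing with counts and colour for the log2 fold change, hindlimb over forelimb; grey tags were not tested. Red rings mark tags that match the gene alone and to which the table gives no gene, among them the 2 largest rings, near the end of Epha3.

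Of the other Eph receptors, 5 of 8 had enough counts to be tested. Epha5, a receptor best known from the brain, was lower in hindlimb, at 5.78 and 1.26 CPM in hindlimb against 19.1 and 11.7 CPM in forelimb (log2 fold change −2.13 ± 0.67 SE, edgeR adjusted p = 0.0386; −2.17 with the tag-sequence offset, adjusted p = 0.241), and 4 did not pass. That call was also lost with the offset on G and C content alone (−1.57, adjusted p = 0.139), without hindlimb replicate 2, without forelimb replicate 1, and in DESeq2, which called none of these receptors. All 4 other ephrins were tested. Efnb3, the third ephrin-B ligand, was higher in hindlimb, at 52.9 and 49.2 CPM in hindlimb against 23.9 and 22.9 CPM in forelimb (1.12 ± 0.37 SE, adjusted p = 0.0441; 0.45 with the offset), and 3 did not pass. The Efnb3 call was lost without each of the 4 libraries in turn, with the replicate block (adjusted p = 0.0576), with the offset on G and C content alone (0.73, adjusted p = 0.179), and in DESeq2, which called none of these 4 ephrins.

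Among partners of forward signalling, 2 of 26 tested genes were higher and 4 were lower in hindlimb. Of all genes tested 9.58% were higher and 7.08% lower, so so few calls are not read as a result about the list. Src, a non-receptor tyrosine kinase, was at 102 and 115 CPM in hindlimb against 30.3 and 20.4 CPM in forelimb (log2 fold change 2.07, edgeR adjusted p = 0.00164), and Inppl1, a phosphoinositide phosphatase, at 124 and 228 CPM in hindlimb against 44.8 and 17.9 CPM in forelimb (2.43, adjusted p = 0.00171). The kinase Yes1 was at 34.9 and 20.2 CPM in hindlimb against 101 and 104 CPM in forelimb (−1.90, adjusted p = 0.00303). The adaptors Crk and Nck1 and the phosphatase Ptpn11 were also lower in hindlimb, at −1.34, −1.19 and −1.14. The tags of Src and Inppl1 held 67.9% and 78.6% G and C, and those of Yes1, Crk, Nck1 and Ptpn11 22.3% to 36.5%. Over the 26 genes the median log2 fold change was −0.20, and none was called with the tag-sequence offset, where 3 had an unadjusted p under 0.05.

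No partner of reverse signalling was called among 8 tested by edgeR or DESeq2, with 2 at an unadjusted p under 0.05. The most abundant were Sdcbp, a PDZ adaptor also named syntenin, at 222 and 202 CPM in hindlimb against 348 and 284 CPM in forelimb, and Rgs3, a regulator of G protein signalling, at 72.3 and 53.4 CPM in hindlimb against 102 and 119 CPM in forelimb (log2 fold change −0.81, edgeR adjusted p = 0.0945). Of 5 genes of shedding and turnover, none was called by either tool and 2 had an unadjusted p under 0.05. The proteases Mmp14, at 311 and 362 CPM in hindlimb against 199 and 222 CPM in forelimb, and Adam10, at 141 and 134 CPM in hindlimb against 145 and 181 CPM in forelimb, were the most abundant.

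Among 8 limb regulators of Eph and ephrin genes, Hoxa11 and Hoxd11, Hox genes of the middle limb segment, were lower in hindlimb, as were 7.08% of all genes tested. Hoxa11 was at 32.9 and 21.7 CPM in hindlimb against 52.5 and 99.5 CPM in forelimb (log2 fold change −1.46, edgeR adjusted p = 0.0186), and Hoxd11 at 44.9 and 46.4 CPM in hindlimb against 70.8 and 122 CPM in forelimb (−1.07, adjusted p = 0.0457). With the offset they were at 0.68 and −0.12, and none of the 8 was called, with 2 at an unadjusted p under 0.05. Without hindlimb replicate 1, 5 genes of these other Eph, ephrin and pathway lists were higher and 12 were lower in hindlimb, against 3 and 7 with all 4 libraries. Leaving out another library gave 2 or 3 higher and 1 to 3 lower.

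Markers of cell types of the limb also moved, and their part in the results was not tested. Of all genes tested 16.7% were called, 9.58% higher and 7.08% lower in hindlimb. Of 9 endothelial markers, Pecam1 (log2 fold change 2.08) and Cldn5 (2.32) were higher and Cdh5 (−1.16) was lower in hindlimb, and the list summed to 218 and 235 CPM in hindlimb against 241 and 187 CPM in forelimb. Of 8 arterial markers, Gja4 (1.79) was higher in hindlimb by edgeR, while DESeq2 called none higher and 1 lower, and the replicate block took Gja4 to an adjusted p of 0.0504. The list had sums of 179 and 143 CPM in hindlimb against 213 and 210.1 CPM in forelimb. Of 6 venous and lymphatic markers none was called by edgeR or DESeq2, 2 had an unadjusted p under 0.05, and the sums were 178 and 176 CPM in hindlimb against 256 and 284 CPM in forelimb.

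Of 9 tested skeletal muscle markers, 5 were lower in hindlimb: Myf5 (−1.94), Myh3 (−1.09), Myh8 (−1.84), Acta1 (−1.64) and Ttn (−1.40). For this and the next lists, the shares over all genes tested were 7.08% lower and 9.58% higher in hindlimb. The list summed to 969 and 1035 CPM in hindlimb against 2811 and 2312 CPM in forelimb. Of 10 axon and Schwann cell markers, Stmn2 (−1.57) was lower in hindlimb, with sums of 129 and 114 CPM in hindlimb against 129 and 169 CPM in forelimb. In cartilage, Col2a1 (1.46) was higher and Matn1 (−1.26) was lower in hindlimb, of 7 tested, with sums of 3840 and 4929 CPM in hindlimb against 3613 and 3319 CPM in forelimb. In epidermis, Krt14 (1.04) and Krt1 (0.97) were higher and Krt10 (−1.27) and Trp63 (−1.15) were lower in hindlimb, of 7 tested, with sums of 1480 and 1832 CPM in hindlimb against 1137 and 1227 CPM in forelimb. With the tag-sequence offset no marker of these lists was called by edgeR. Markers at 0 in a library were Pax3, in hindlimb replicate 2, and Snorc, a cartilage gene, in all but hindlimb replicate 2.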

How the data were processed

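The authors deposited 1 table of raw tag counts, whole numbers that sum to different totals, with a UniGene cluster and Ensembl gene for a tag where one was given; per the submitters' processing notes, Bowtie and mm9 were used, with version and settings not given in the sources used here. Counts were summed per Ensembl gene, or per cluster where no gene was given. Tags with neither, 14.8% to 18.7% of a library's counts, stayed out of library sizes and tests. The limb types were set against each other in R 4.3.3 with edgeR 4.0.16 (glmQLFit, glmQLFTest, TMM, filterByExpr, Benjamini-Hochberg over all genes or tags at 0.05, no replicate block, n = 2 each); fold changes are hindlimb over forelimb. Tag ratios were tested with diffSpliceDGE. DESeq2 1.42.0 was an alternative.

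Tags were matched next to every CATG of GENCODE M21 transcripts, and positions are GRCm38, not mm9. Among tags to which the table gives an Ensembl gene and that matched 1 M21 gene, 98.0% of the counts lay in tags where both were the same gene. Matched tags to which the table gives no Ensembl gene are not in this share. Of the 166 member tags with a count, 120 matched the sense strand of their gene, 30 the antisense strand, 1 another gene and 15 no transcript, and no matched tag matched several genes.

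The tag-sequence offset has, for each library, terms for the base at each of the 17 positions, for the leading dinucleotide and for G+C and purine number (quadratic), and is fitted only within genes, from how their tags differ. For tag ratios, counts were divided by the fitted bias and rounded. The offset on G and C content alone is a lowess with span 0.3. The scripts were tested on simulated data. Replicates of a limb type differed beyond sampling noise, the chi-square over its degrees of freedom being 19.99 (hindlimb pair) and 8.73 (forelimb pair). No molecular identifiers mark PCR copies, so intervals cover counting error only.

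The members, gene lists and alternatives were chosen with earlier results of these data known. Tags with at least 5% of their gene's counts, called tags, called list members and, in pathway lists with none, the 2 most abundant genes are named; a few further tags of members and the limb identity genes were named after their values were seen.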

Additional observations from a re-analysis of the deposited data

Results flagged for a closer look

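Tags that match a single one of the 10 genes on its sense strand, but to which the deposited table gives no gene or cluster, held 1103 counts in 51 tags, beside 9959 counts assigned to the genes. They lie outside the comparison of genes. By gene these counts came to 683 for Epha3, 238 for Ephb2, 58 for Efna5, 44 for Ephb4, 40 for Epha4, 27 for Ephb3 and 11 for Efnb2, each above the 3 counts that a count of 0 allows. Unassigned tags on the antisense strand held 143 counts for Efnb1, 50 for Efnb2, 49 for Efna5, 49 for Epha7, 40 for Ephb3, 14 for Ephb4, 11 for Epha4, 11 for Ephb2 and 4 for Epha3.

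For Epha3 the unassigned sense counts were 225 and 94 in hindlimb and 228 and 136 in forelimb, above the 36 and 4 in hindlimb and 30 and 14 in forelimb that the table assigned. The largest 2 lie beside the last and the next NlaIII site of the longest transcript.
Epha3, last site: CATGgttcatttagtttatgt
Epha3, next site: CATGtataaatatgatatgat
The tag of the last site had 106 and 43 counts in hindlimb against 69 and 44 in forelimb, and that of the next site 58 and 22 in hindlimb against 87 and 68 in forelimb. The next largest unassigned tag, with 61 counts, ends in a run of A bases. It is counted for Epha3 here, and whether other transcripts gave it was not tested. With every tag given to the single M21 gene it matched, an alternative chosen after the data were seen, Epha3 was at 58.7 and 30.3 CPM in hindlimb against 65.2 and 91.4 CPM in forelimb (log2 fold change −0.80 ± 0.37 SE, edgeR adjusted p = 0.140), where the table's own assignment gave means of 4.51 CPM in hindlimb and 8.15 CPM in forelimb.

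For Ephb2 the unassigned sense counts were 100 and 113 in hindlimb and 21 and 4 in forelimb. More than any other, the tag of the last site of the longest transcript carried them, with 64 and 61 counts in hindlimb against 1 and 0 in forelimb.
Ephb2, last site: CATGgccccccagcccagctg
G and C make up 82.4% of its bases, a composition at which the median log2 fold change of all tags tested was 3.14. With the M21 assignment Ephb2 was at 75.3 ± 11.2 CPM in hindlimb against 44.0 ± 10.6 CPM in forelimb (mean ± SD, n = 2 each), a log2 fold change of 0.76 ± 0.34 (SE, edgeR adjusted p = 0.133).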

How the results depend on the processing

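The 10 genes gave 1 call higher and 1 lower in hindlimb. The count higher in hindlimb was 2 with no filter on low counts, with DESeq2, with the most abundant tag of each gene, with the last NlaIII site, with the M21 assignment and with crossed replicate numbers, and 1 to 2 when libraries were left out. It was 0 with the tag-sequence offset. The count lower in hindlimb was 0 with that offset, with the offset on G and C content alone, with the most abundant tag and with the last site, and 0 to 1 when libraries were left out. The other Eph, ephrin and pathway lists gave 3 higher and 7 lower; with the tag-sequence offset 0 and 0, with the G and C offset 0 and 1, 7 higher with the most abundant tag and with the last site, and 2 to 5 higher and 1 to 12 lower when libraries were left out. Of the tags, 3 higher and 1 lower in hindlimb were called; with the tag-sequence offset 0 and 0, with a minimum of 10 counts, library totals alone or the replicate block 0 lower, and 3 to 7 higher and 1 to 6 lower when libraries were left out. The tag ratio was called for 1 gene; with the tag-sequence offset it was called for 0, and for 0 to 3 when libraries were left out.

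Signs turned, none at an adjusted p below 0.05, for Epha4 (0.89 with the tag-sequence offset, 0.53 with the G and C offset), Ephb2 (−0.70, −0.78, −0.42 with the most abundant tag, −0.10 with the last site), Ephb3 (0.11 with the tag-sequence offset), Efna5 (−1.16 with the last site), Efnb1 (−0.062 with the G and C offset), Efna1 (0.25 with the G and C offset, −0.71 to 0.16 when libraries were left out) and Epha7 (−0.079 to 0.50 when libraries were left out). Of the tags, signs turned for Efnb2 tag 1 (0.0074), Epha4 tag 1 (1.23) and Ephb3 tag 1 (0.29) with the tag-sequence offset, and, when libraries were left out, for Epha4 tag 1 (−0.41 to 0.16) and Ephb2 tag 1 (−0.94 to 0.29). The cause was not tested, beyond what the construction of the offsets shows.

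The labels do not say that a replicate number pairs the limbs, and 2 pairs cannot settle it; the deviations of the replicate 1 libraries correlated at −0.12 over 13718 genes, and no pairing was assumed. The replicate block took 1 called tag to 0 lower in hindlimb, moved Efnb1 tag 1 to an adjusted p of 0.0768, and left the Efnb1 tag ratio called (adjusted p = 0.0424). With crossed numbers, chosen after the data were seen, 1684 genes were higher and 1486 lower in hindlimb, against 1314 and 971. Over all genes the calls were 1899 and 2001 without hindlimb replicate 1, and 583 to 637 and 367 to 407 without another library. With 2 libraries each and the shallowest at 1829647 counts, differences of genes with few counts such as Efna1 and Epha3 were not detectable unless large.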

Other observations

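Antisense tags that the table gives to the members themselves held 286 counts, 2.87% of the members' total, with 11.1% for Efnb2 and 7.32% for Efna5. Efnb2 tag 5, which matches the antisense strand, had 19 and 11 counts in hindlimb against 32 and 25 in forelimb, a log2 fold change of −1.71 (edgeR adjusted p = 0.134). With the M21 assignment, which leaves antisense tags out, Efnb2 had a log2 fold change of −1.18 (adjusted p = 0.0187), Ephb4 1.86 (adjusted p = 0.00179) and Efnb1 1.04 (adjusted p = 0.0430), and 16.7% of the 12548 genes tested were called.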
